A study of Mus musculus with 19 samples.

Results

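The 10 genes described here encode the subunits that BAF chromatin remodelling complexes exchange as neural progenitors become neurons, together with the ATPases that drive the complexes. They were taken by name: Actl6a, Phf10 and Ss18 as subunits of the progenitor form, Actl6b, Dpf1, Dpf3 and Ss18l1 as subunits of the neuronal form, the broadly used Dpf2, and the ATPases Smarca4 and Smarca2. They are 10 of the 47069 genes listed in the count tables, and all 10 passed the filter on low counts that left 15941 genes for testing. Their transcripts were compared between ipsilateral and contralateral retinal ganglion cells (iRGCs and cRGCs), the neurons whose axons stay on the same side of the brain or cross the midline at the optic chiasm.

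RNA-seq was available for 3 iRGC and 3 cRGC libraries of mouse embryos of both sexes at embryonic stage E16.5, with C57/DBA F1 as the strain label and WT as the genotype label. iRGCs came from whole retinas of embryos that carried the ET33 Sert-Cre transgene, in which Cre is driven from regulatory sequence of the serotonin transporter gene Slc6a4. cRGCs came from embryos with Cre targeted into the Brn3b (Pou4f2) locus, after the ventrotemporal region, where iRGCs lie, had been cut away. Both populations also carried a Cre-dependent Sun1-GFP cassette under the CAG promoter in Rosa26, which marks the nuclear envelope, and GFP-positive cells were sorted. According to the paper, iRGCs arise later in development, so at E16.5 these cells are on average younger than cRGCs. Population, Cre line, dissected region and cell age therefore cannot be told apart. The counts assigned to genes were 28193178, 29759011 and 30874653 in iRGC libraries 1 to 3 and 28274471, 30454674 and 33638083 in cRGC libraries 1 to 3. Counts of single members ran from 616 to 31840 per library. How many embryos contributed to each library was not stated, so the errors measure the spread between libraries.

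One library stood apart from its label. Slc6a4, the gene whose regulatory sequence drives Cre in the iRGC line, reached 2.06, 33.4 and 116 CPM (counts scaled to a common library size, with TMM correction for library composition) in iRGC libraries 1 to 3, against 48.1, 35.4 and 30.5 CPM in the cRGC libraries. The groups overlapped, iRGC library 1 was the lowest of all 6, and the log2 fold change of 0.41 ± 0.93 (SE, iRGC over cRGC, n = 3 and 3) missed the threshold (edgeR quasi-likelihood test, Benjamini-Hochberg adjusted p = 0.768). Its direction rested on single libraries, with a log2 fold change of 0.98 without iRGC library 1 and -1.11 without iRGC library 3, and limma voom gave -0.86. Zic2, the transcription factor of iRGCs, was higher in all 3 iRGC libraries, with 133, 173 and 157 CPM against 57, 60.2 and 65.7 CPM. Sun1, of which the reporter carries a GFP-tagged copy, was at 99.0, 120 and 153 CPM in iRGC libraries and 391, 271 and 384 CPM in cRGC libraries, 2.81-fold lower in iRGCs (log2 fold change -1.49 ± 0.19, edgeR, Benjamini-Hochberg adjusted p = 0.000487), and reads of the reporter and of the native gene cannot be told apart. Slc6a4, Zic2 and Sun1 were looked up after values had been seen. The differences of the 10 members are therefore also given without iRGC library 1.

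The cell markers differed strongly as well. All 13 retinal progenitor markers tested were higher in iRGCs, among them Sox2 and Ccnd1, with a median log2 fold change of 2.55. Their summed level was 7961, 7057 and 6169 CPM in iRGC libraries 1 to 3 and 716, 1797 and 1164 CPM in the cRGC libraries, Ccnd1 was the most abundant, and none was at 0. All 16 cell cycle markers were also higher (median 2.44), with summed levels of 4650, 3994 and 3876 CPM against 516, 1144 and 754 CPM. Of 14 RGC markers, 13 were lower in iRGCs (median -1.94; Thy1 missed the threshold), and their sum rose from 2573 and 3603 CPM in iRGC libraries 1 and 2 to 5497 CPM in iRGC library 3 and to 14271, 12856 and 15884 CPM in the cRGC libraries, with Nefm the most abundant and none at 0. All 10 neuronal maturation genes were lower (median -1.71). These marker lists differed between the same populations as the BAF subunits reported below, and their part in the BAF differences was not tested. In sorted bulk samples, fewer cells that use a transcript and fewer copies in each cell cannot be told apart.

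BAF, also called mammalian SWI/SNF, is a multi-subunit machine that uses ATP to slide or evict nucleosomes and so opens enhancers and promoters. One of 2 alternative ATPases, SMARCA4 (BRG1) or SMARCA2 (BRM), forms its motor. When neural progenitors leave the cell cycle, the actin-related subunit BAF53a (Actl6a) is replaced by BAF53b (Actl6b), the PHD finger subunits BAF45a (Phf10) and BAF45d (Dpf2) give way to BAF45b (Dpf1) and BAF45c (Dpf3), and SS18 is replaced by its relative SS18L1 (CREST). Dpf2 is used in most cell types and was kept out of the progenitor list counted below. The progenitor form is known for its part in proliferation, the neuronal form for dendrite growth and activity-dependent transcription, and miR-9-3p (also miR-9*) and miR-124-3p are known to repress Actl6a in neurons.

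The sequences behind that background are shown because Actl6a and Actl6b moved in opposite directions. The mature miR-9-3p, with its seed at bases 2 to 8 in capitals, is identical for the 3 RefSeq genes Mir9-1, Mir9-2 and Mir9-3. The letters that pair with the seed, AGCTTTA, were searched on the sense strand of annotated 3′ UTRs (GRCm38). Of the 10 members, Actl6a and Smarca2 hold one match each, at chr3:32726640-32726646 in Actl6a and at chr19:26777502-26777508 in Smarca2, both on the plus strand. They are printed with the matching letters in capitals and 11 bases on either side:
miR-9-3p: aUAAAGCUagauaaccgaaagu
Actl6a 3′ UTR: tcaacgtctgtAGCTTTAgtacactcagg
Smarca2 3′ UTR: catctagaactAGCTTTAgggtagtgcca
The same letters occur in the 3′ UTR of 2479 of 21632 genes (11.5%), so a match is a description of the sequence and not a sign of regulation. miR-124-3p was not searched here.

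RefSeq promoter windows, from 250 bases before to 50 bases after the start site (GRCm38.p6), were available for 9 of the 10 members, and all 9 had a GC content above the median of 52.7% over 32851 windows, from 55.3% at Dpf3 to 87.0% at Phf10. The 250 bases before the RefSeq start sites of Actl6a (chr3:32708296-32708545, plus strand) and Actl6b (chr5:137553296-137553545, plus strand) are printed as the pair that differed most. The Actl6a stretch lies inside the annotated gene (chr3:32706298-32726973), downstream of its first base, so it precedes an internal start site. CG dinucleotides are in capitals. The Actl6a stretch holds 19 of them and the Actl6b stretch 15:
Actl6a: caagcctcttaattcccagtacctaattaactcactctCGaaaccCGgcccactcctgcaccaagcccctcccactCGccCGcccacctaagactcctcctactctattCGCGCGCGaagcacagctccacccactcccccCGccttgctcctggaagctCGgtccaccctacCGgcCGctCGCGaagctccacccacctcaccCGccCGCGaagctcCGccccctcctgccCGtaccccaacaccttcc
Actl6b: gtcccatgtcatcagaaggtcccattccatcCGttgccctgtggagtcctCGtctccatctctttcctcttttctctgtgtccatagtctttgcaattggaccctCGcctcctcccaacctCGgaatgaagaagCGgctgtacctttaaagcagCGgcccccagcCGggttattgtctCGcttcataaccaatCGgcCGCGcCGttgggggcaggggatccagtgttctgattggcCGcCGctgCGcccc
The left and right parts of the RE1 element bound by REST and an E2F site were searched on both strands. TTCAGCACC, the left part, lies in 0.371% of all windows and in none of these 9, and the E2F letters TTTCGCGC or TTTGGCGC lie in 0.813% and likewise in none of the 9. GGACAG, the right part, lies in 22.2% of windows, among them those of Actl6b and Dpf2. These letters are absent from or present in the window only.

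The question for each member was whether its transcript differed between the populations. Of the 10 members, 3 were higher in iRGCs (Actl6a, Phf10 and Ss18, all of the progenitor list), 5 were lower (all 4 of the neuronal list and Smarca4), and Smarca2 and Dpf2 missed the threshold (edgeR quasi-likelihood test, Benjamini-Hochberg adjusted p under 0.1 over 15941 genes). Across all tested genes 23.3% were called higher and 23.1% lower, so differences were common. The progenitor list counted 3 of 3 higher with a median log2 fold change of 0.41 and the neuronal list 4 of 4 lower with a median of -1.32, beside a median of -0.003 over all tested genes. With an absolute log2 fold change above 1 required as well, 0 members were higher (12.1% of all tested genes) and 4 were lower (11.0% of all), namely Actl6b, Dpf1, Dpf3 and Ss18l1. The libraries of the populations did not overlap for 9 members, all but Smarca2, as for 55.3% of all tested genes. Without iRGC library 1 the same 3 were called higher and the same 5 lower. Dpf3 then stood at -0.96, short of an absolute log2 fold change of 1.

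**Figure D1:**
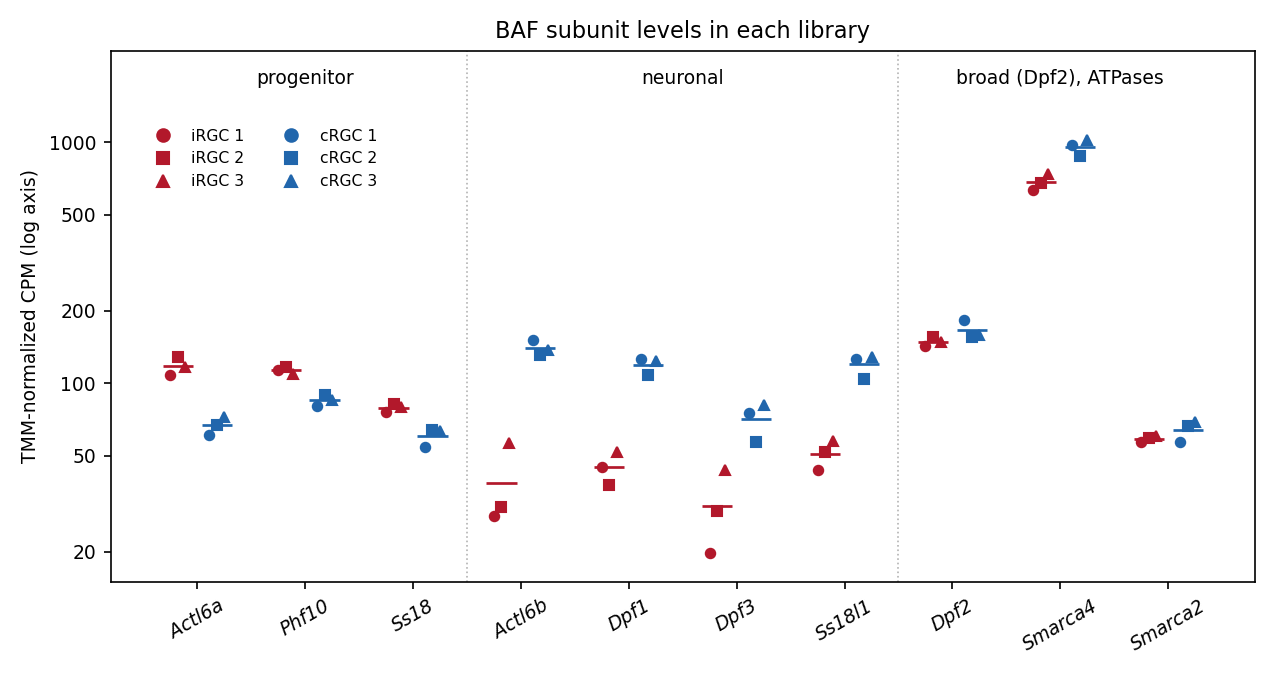
Level of each member in each library, as TMM-normalized CPM on a log axis, with iRGC libraries in red, cRGC libraries in blue, a symbol for each replicate number and a line at the mean of 3. The 3 progenitor subunits lie higher in iRGCs, the 4 neuronal subunits lie lower with the widest spread in iRGCs, and Smarca4 lies far above the rest.

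Actl6a and Actl6b encode alternative actin-related subunits that occupy the same position in the complex. Actl6a (ENSMUSG00000027671, chr3:32706298-32726973, plus strand, GRCm38) reached 108, 128 and 117 CPM in iRGC libraries 1 to 3 and 60.8, 66.9 and 72.8 CPM in the cRGC libraries. Each iRGC library lay above each cRGC library, and the means of 118 ± 9.86 and 66.8 ± 6.01 CPM (SD, n = 3 each) differed 1.76-fold. The log2 fold change was 0.82 ± 0.12 (SE; edgeR, Benjamini-Hochberg adjusted p = 0.000821) and 0.87 without iRGC library 1. Actl6a shares 11.6% of its exonic bases with Mrpl47 on the opposite strand, a mitochondrial ribosomal protein gene that was itself higher in iRGCs (34.5, 27.7 and 30.7 against 18.4, 22.5 and 18.6 CPM). The strand setting of the counting was not stated, so reads in that overlap cannot be told apart.

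Actl6b, the neuron-restricted counterpart, had the greatest difference of the 10 members. Actl6b (ENSMUSG00000029712, chr5:137553517-137569582, plus strand) was at 28.0, 30.6 and 56.7 CPM in iRGC libraries 1 to 3 and at 151, 131 and 138 CPM in the cRGC libraries. The groups lay well apart, and iRGC library 3, which also had the highest RGC marker sum among iRGC libraries, stood between the other iRGC libraries and the cRGC libraries. The means of 38.4 ± 15.9 and 140 ± 10.1 CPM differed 3.64-fold, a log2 fold change of -1.87 ± 0.25 (SE; edgeR, Benjamini-Hochberg adjusted p = 0.00058). Leaving out one library at a time gave values from -2.27 to -1.68, the latter without iRGC library 1.

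The BAF45 family supplies the PHD finger subunits that read histone tails. Phf10 (BAF45a; ENSMUSG00000023883, chr17:14945009-14961273, minus strand) of the progenitor form was at 114, 117 and 109 CPM in iRGC libraries 1 to 3 and at 80.8, 89.1 and 85.0 CPM in the cRGC libraries, without overlap. Its log2 fold change was 0.41 ± 0.10 (SE; edgeR, Benjamini-Hochberg adjusted p = 0.0102), 0.41 also without iRGC library 1. Phf10 shares 9.57% of its exonic bases with 1600012H06Rik on the opposite strand.

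Dpf1 and Dpf3, which encode the neuronal family members BAF45b and BAF45c, were both lower in iRGCs. Dpf1 (ENSMUSG00000030584, chr7:29303951-29318243, plus strand) was at 45.0, 37.8 and 51.9 CPM in iRGC libraries and at 126, 108 and 124 CPM in cRGC libraries, a 2.66-fold difference of the means. With a log2 fold change of -1.41 ± 0.14 (SE; edgeR, Benjamini-Hochberg adjusted p = 0.000233) Dpf1 had the smallest adjusted p of the 10 members, and the value was -1.41 also without iRGC library 1. Dpf3 (ENSMUSG00000021221, chr12:83213745-83487716, minus strand) was at 19.8, 29.4 and 43.5 CPM in iRGC libraries and at 75.2, 57.3 and 81.0 CPM in cRGC libraries. Its groups did not overlap, but its coefficients of variation (38.6% in iRGCs and 17.3% in cRGCs) were wider than those of Dpf1 (15.7% and 8.14%), and its log2 fold change was -1.20 ± 0.27 (SE; edgeR, Benjamini-Hochberg adjusted p = 0.00669). Without iRGC library 1 it was -0.96, the greatest move of any member value on leaving out that library, and it remained below the threshold with an adjusted p of 0.0113 by edgeR.

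Dpf2 (BAF45d; ENSMUSG00000024826, chr19:5896516-5913010, minus strand), a family member used in most cell types, was close in both populations. It was at 143, 155 and 148 CPM in iRGC libraries and at 184, 155 and 159 CPM in cRGC libraries. The groups were separated only in the decimals, and the log2 fold change of -0.16 ± 0.11 (SE; edgeR, Benjamini-Hochberg adjusted p = 0.275) missed the threshold and turned to 0.05 when library totals replaced TMM scaling. It was -0.13 without iRGC library 1.

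SS18 and its neuronal relative SS18L1 (CREST, a calcium-responsive coactivator) are alternative partners in the complex. Ss18 (ENSMUSG00000037013, chr18:14624198-14682914, minus strand) was at 76.2, 82.1 and 79.6 CPM in iRGC libraries and at 54.2, 63.7 and 63.7 CPM in cRGC libraries. All iRGC libraries lay above all cRGC libraries, and the log2 fold change was 0.39 ± 0.12 (SE, edgeR, Benjamini-Hochberg adjusted p = 0.0255), or 0.42 without iRGC library 1. Library totals in place of TMM scaling gave 0.59 (edgeR, Benjamini-Hochberg adjusted p = 0.00346). The call came near the threshold without cRGC library 1 (0.31, edgeR adjusted p = 0.0897) and without iRGC library 2 (0.36, edgeR adjusted p = 0.0826). Ss18l1 (ENSMUSG00000039086, chr2:180042509-180070201, plus strand) showed the reverse, at 43.6, 51.7 and 57.8 CPM in iRGC libraries and at 126, 105 and 129 CPM in cRGC libraries. Its means differed 2.35-fold and its log2 fold change was -1.23 ± 0.14 (SE; edgeR, Benjamini-Hochberg adjusted p = 0.000313), or -1.13 without iRGC library 1.

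Of the ATPases, Smarca4 differed modestly. Smarca4 (BRG1; ENSMUSG00000032187, chr9:21616169-21704230, plus strand) was at 635, 679 and 741 CPM in iRGC libraries and at 976, 875 and 1028 CPM in cRGC libraries, a 1.40-fold difference of the means without overlap. Its log2 fold change was -0.49 ± 0.11 (SE, edgeR, Benjamini-Hochberg adjusted p = 0.00698), or -0.44 without iRGC library 1. With library totals in place of TMM scaling it was -0.28 (edgeR, Benjamini-Hochberg adjusted p = 0.0336). Smarca2 (BRM; ENSMUSG00000024921, chr19:26605050-26778322, plus strand) was at 56.9, 59.4 and 60.5 CPM in iRGC libraries and at 56.9, 66.2 and 69.1 CPM in cRGC libraries. Its groups overlapped, and the log2 fold change of -0.12 ± 0.12 (SE; edgeR, Benjamini-Hochberg adjusted p = 0.47) missed the threshold and turned to 0.08 with library totals. It was -0.10 without iRGC library 1.

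**Figure D2:**
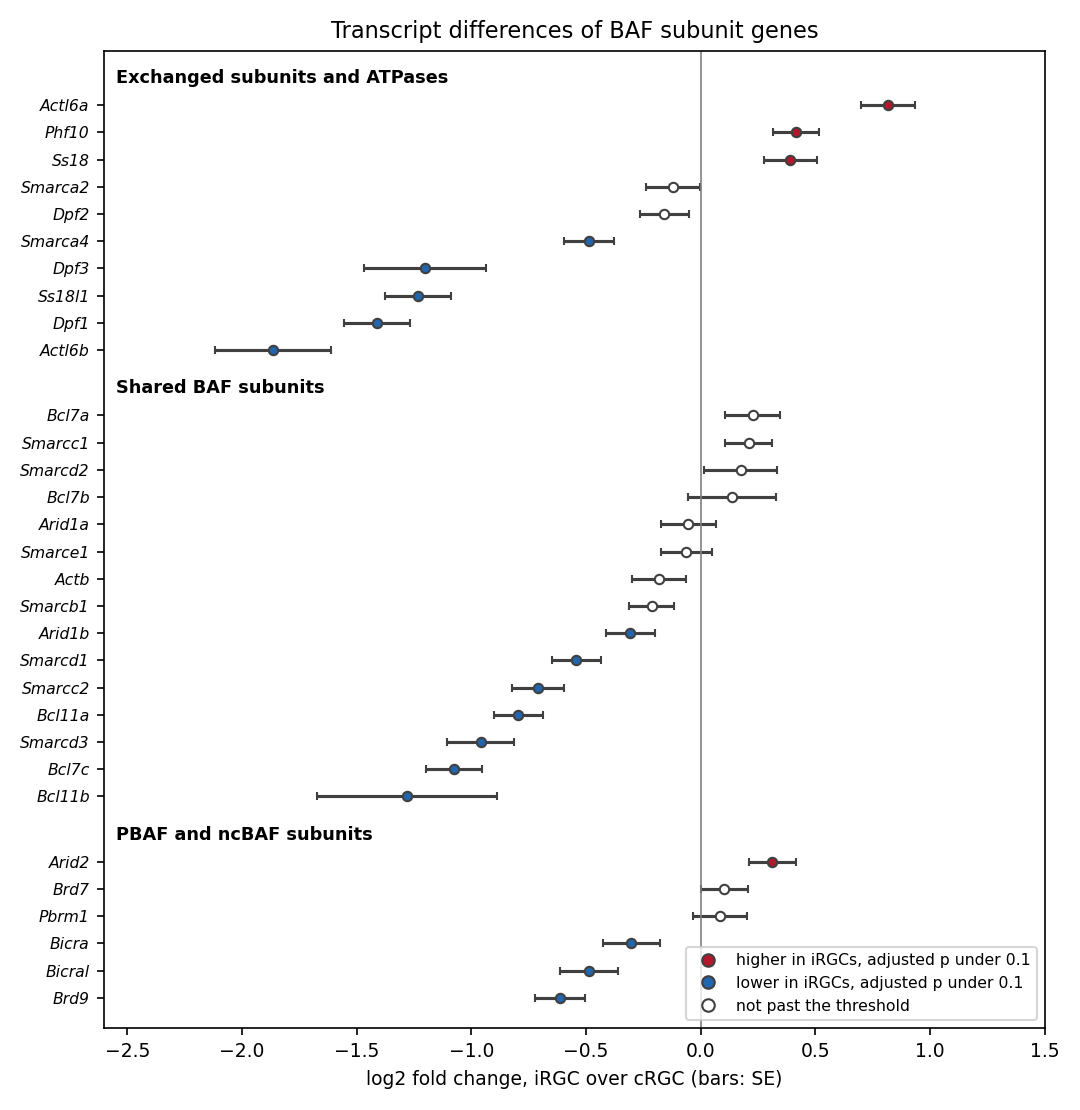
Log2 fold change (iRGC over cRGC) of the 10 members, the 15 shared BAF subunits and the 6 PBAF and ncBAF subunits, with bars of 1 SE from the edgeR fit of 3 against 3 libraries. Red points were higher and blue points lower in iRGCs at an adjusted p under 0.1, and open points missed the threshold; the members run from 0.82 at Actl6a to -1.87 at Actl6b.

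Transcript ratios of alternative subunits were also taken inside each library, where library scaling cancels. They compare RNA in the sorted cells and do not measure the makeup of complexes. Counts were divided by the exonic length of each gene before the ratio was taken. The Actl6b to Actl6a ratio was 0.235, 0.218 and 0.443 in iRGC libraries 1 to 3 and 2.26, 1.78 and 1.73 in cRGC libraries. Actl6a thus exceeded Actl6b in every iRGC library and the order was inverted in every cRGC library, with Actl6b making up 22.5% ± 7.10 of the pair in iRGCs and 65.6% ± 3.27 in cRGCs (SD, n = 3 each). The difference was 6.75-fold between geometric means, or -2.75 on the log2 scale (-2.62 without iRGC library 1).

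The Ss18l1 to Ss18 ratio was 1.24, 1.37 and 1.57 in iRGC libraries and 5.03, 3.56 and 4.40 in cRGC libraries. Ss18l1 made up 58.1% ± 2.90 of the pair per kilobase in iRGCs and 81.0% ± 2.70 in cRGCs, and the ratio differed 3.09-fold. Which of the pair was ahead in iRGCs depended on the division by annotated exonic length (9419 bases for Ss18 and 4343 for Ss18l1), since the counts ran the other way there, at 2370, 2657 and 2526 for Ss18 and 1355, 1674 and 1832 for Ss18l1. Dpf1 and Dpf3 together, over Phf10, gave 0.565, 0.589 and 0.896 in iRGC libraries and 2.51, 1.86 and 2.44 in cRGC libraries, a 3.37-fold difference. The order was inverted for this sum against Phf10 alone. Dpf2, named above beside Phf10 as a subunit that gives way, was left out of the ratio and held the largest family share in cRGCs. Taken singly in cRGCs, Dpf1 (mean 22.2 CPM per kilobase) exceeded Phf10 (17.3), and Dpf3 (16.8) did not. Within the whole BAF45 family Phf10 held 37.5% ± 2.88 of the counts per kilobase in iRGCs and 21.2% ± 2.48 in cRGCs, Dpf2 held 37.2% ± 1.92 and 31.2% ± 1.89, Dpf1 held 13.6% ± 1.87 and 27.1% ± 0.431, and Dpf3 held 11.7% ± 3.91 and 20.5% ± 2.47. The Smarca2 to Smarca4 ratio moved little, from 0.0391 ± 0.00186 in iRGCs to 0.0304 ± 0.00393 in cRGCs. Without iRGC library 1 the log2 differences of these 3 ratios were -1.55, -1.63 and 0.34, beside -1.63, -1.75 and 0.37 with it. For all 4 ratios the groups did not overlap, and the two-sided exact permutation test gave p = 0.1, which is the smallest that 3 against 3 libraries allow and remains 0.1 after Benjamini-Hochberg adjustment over 4 ratios. These ratios rest on the same counts as the tests of the single genes and add no independent evidence.

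**Figure D3:**
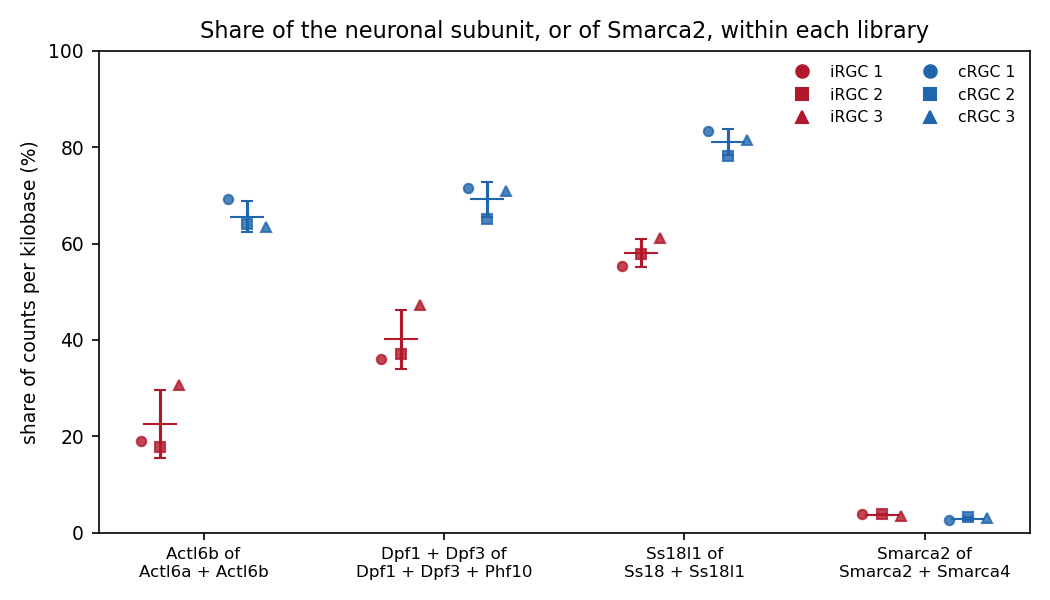
Share of counts per kilobase, in percent, held by the neuronal subunit within its pair or family, and by Smarca2 within the ATPases, for each library (points), with the mean and SD of 3 iRGC (red) and 3 cRGC (blue) libraries. The Actl6b share rises from a mean of 22.5% to 65.6%, and the Smarca2 share stays under 4% in every library.

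As levels per length (mean CPM per kilobase of exon), Smarca4 led both populations, at 106 ± 8.27 in iRGCs and 148 ± 12.0 in cRGCs (SD, n = 3 each). In iRGCs it was followed by Actl6a (30.3 ± 2.54), then Phf10 (23.0) and Dpf2 (22.9), which overlapped, then Ss18l1 (11.7), Actl6b (9.01), Ss18 (8.42), Dpf1 (8.35) and Dpf3 (7.32), each overlapping its neighbour, and last Smarca2 (4.13). In cRGCs the second place went to Actl6b (32.8 ± 2.36), followed by Ss18l1 (27.6) and Dpf2 (25.5), which overlapped, Dpf1 (22.2), then Phf10 (17.3), Actl6a (17.2) and Dpf3 (16.8), which overlapped, Ss18 (6.43) and Smarca2 (4.49). Actl6a thus stood second among the members in iRGCs and seventh in cRGCs, and Actl6b moved from sixth to second. Among all tested genes the level of Smarca4 lay at percentile 98.8 in iRGCs and 99.0 in cRGCs, and that of Smarca2 at percentiles 43.8 and 47.6.

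Actl6a and Actl6b served as templates for the genes most like them over the 6 libraries, by Pearson correlation of log2(CPM + 0.5) among 8479 genes with a mean of at least 20 CPM. The nearest to Actl6a were Rps4x, Nelfe and Mtap (r from 0.997 to 0.999), and the nearest to Actl6b were Gp1bb, Mapt and Tmem63b (r from 0.999 to 1.000). Mapt encodes the axonal microtubule protein tau, and Rps4x a ribosomal protein. The 6 libraries form 2 populations, and these values include the difference between them.

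**Figure D4:**
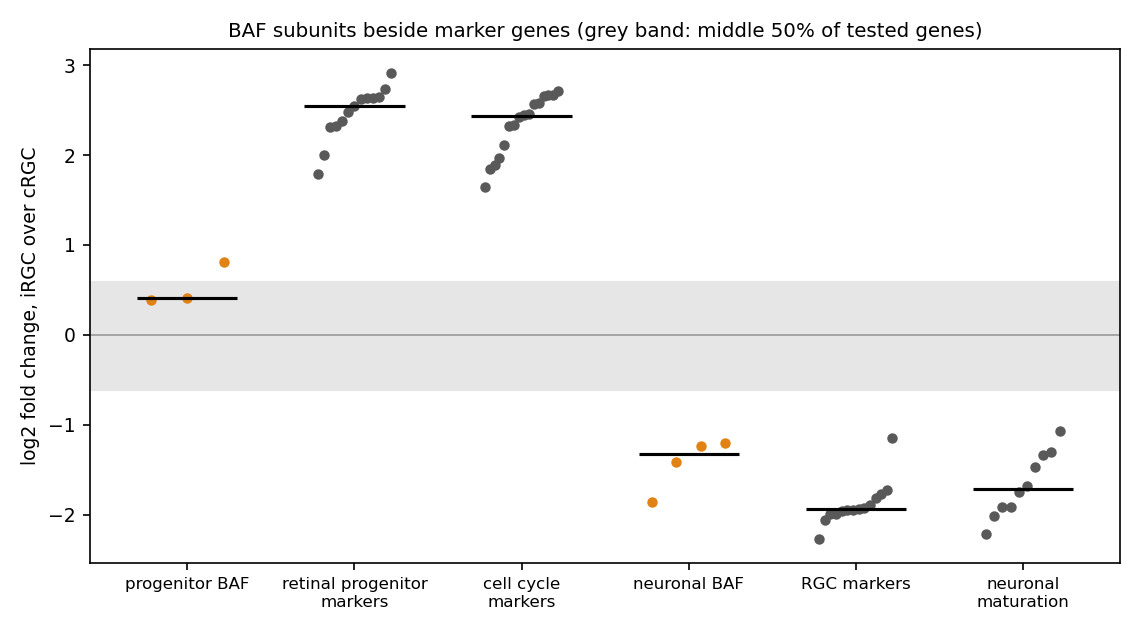
Log2 fold change (iRGC over cRGC) of each gene of the progenitor and neuronal BAF lists (orange) and of 4 marker lists (dark grey), with a line at each median and a grey band for the middle 50% of all tested genes. The BAF medians of 0.41 and -1.32 are smaller in size than those of the progenitor (2.55), cell cycle (2.44), RGC (-1.94) and maturation (-1.71) genes.

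Of the 15 subunits that both forms of the complex share, 7 were lower in iRGCs (46.7%, beside 23.1% of all tested genes) and 0 higher, with a median log2 fold change of -0.21. The scaffold gene Smarcc2 (BAF170) was lower, at 430, 422 and 494 CPM in iRGC libraries and 813, 687 and 700 CPM in cRGC libraries (log2 fold change -0.71 ± 0.11), while its paralog Smarcc1 (BAF155) was at 376, 324 and 326 CPM against 288, 288 and 311 CPM and missed the threshold (0.21 ± 0.10, edgeR adjusted p = 0.146). The BAF60 paralogs Smarcd1 (-0.54 ± 0.11) and Smarcd3 (-0.96 ± 0.15) were lower, while Smarcd2 was not called (0.17 ± 0.16); Smarcd3 shares 48.2% of its exonic bases with Chpf2 on the opposite strand. Also lower were Bcl7c (-1.08 ± 0.12), Arid1b (-0.31 ± 0.11) and the zinc finger genes Bcl11a (-0.80 ± 0.11) and Bcl11b (-1.28 ± 0.39). The last was uneven, at 44.6, 29.8 and 12.8 CPM in cRGC libraries against 10.6, 10.8 and 14.5 CPM, so that cRGC library 3 fell inside the iRGC range. The core subunit Smarcb1 (-0.21 ± 0.10), Smarce1 (-0.06 ± 0.11), Arid1a (-0.05 ± 0.12), Bcl7a (0.23 ± 0.12), Bcl7b (0.14 ± 0.19) and Actb (-0.18 ± 0.12) were not called in the main edgeR fit. Smarcb1 was called lower under 4 of 14 alternatives. These were the DESeq2 test, limma voom, a filter of at least 10 counts in every library, and leaving out iRGC library 3. Actb was also called lower without iRGC library 3. Library totals in place of TMM scaling shifted the median of all genes by 0.20 and brought that of the shared subunits to -0.01. With them, 3 shared subunits were called higher (Bcl7a, Smarcc1 and Smarcd2) and 6 lower. All 6 were among the 7, since Arid1b lost its call (edgeR adjusted p = 0.492). Leaving out one library at a time gave from 6 to 9 lower, Arid1b losing its call without iRGC library 2, cRGC library 2 or cRGC library 3, and Bcl11b without cRGC library 1 (-0.85). The same 7 were lower and 0 higher without iRGC library 1.

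The related PBAF and ncBAF complexes use the same ATPases with other targeting subunits. Of their 6 genes tested, Arid2, which marks PBAF, was higher in iRGCs (0.31 ± 0.10; 285, 260 and 242 against 221, 201 and 212 CPM), and the ncBAF genes Brd9 (-0.61 ± 0.11), Bicra (-0.30 ± 0.12) and Bicral (-0.49 ± 0.13) were lower. These are 16.7% higher and 50% lower of 6 genes, beside 23.3% and 23.1% of all tested genes. The PBAF genes Pbrm1 (0.08 ± 0.12) and Brd7 (0.10 ± 0.10) missed the threshold. The call of Bicra was lost under 10 of 14 alternatives and that of Arid2 under 3, leaving out iRGC library 1, cRGC library 2 or cRGC library 3, while Brd9 and Bicral kept theirs under all 14. Library totals called Pbrm1 and Brd7 higher.

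ACTL6A is also a subunit of the INO80 and TIP60 complexes, so Actl6a transcript is not a measure of BAF alone. Of 22 INO80 and TIP60 genes tested, 6 were higher in iRGCs (Ing3, Ruvbl1, Ruvbl2, Ino80b, Brd8 and Ino80e) and Yeats4 was lower, with a median of 0.11. The shares were 27.3% higher, near the 23.3% of all tested genes, and 4.55% lower, beside 23.1% of all tested genes. The paired AAA+ ATPases Ruvbl1 and Ruvbl2, shared by both complexes, were higher by 0.77 ± 0.23 and 0.59 ± 0.13, and the histone mark reader Ing3 by 1.07 ± 0.17. The catalytic genes Ino80 (0.15 ± 0.13), Ep400 (0.09 ± 0.10) and Kat5 (-0.32 ± 0.23) missed the threshold. With library totals 12 were called higher and 0 lower, and the median was 0.31. The count lower was 2 without iRGC library 1, where Morf4l1 joined Yeats4. It was also 2 without iRGC library 3, where Kat5 joined Yeats4. Ing3, Ruvbl1, Ruvbl2 and Brd8 kept their calls under all 14 alternatives, while Ino80b and Ino80e each lost theirs under 6, Ino80e among others without iRGC library 1.

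Of 15 ATPases of other remodeller families, 26.7% were called higher and 20% lower, near the shares of all tested genes (23.3% and 23.1%), and single genes are given as values. The 4 higher in iRGCs were Hells (2.26 ± 0.25), Chd1 (0.80 ± 0.10), Chd7 (0.68 ± 0.12) and the ISWI ATPase Smarca5 (0.64 ± 0.11). Lower were Chd5 (-2.23 ± 0.44), Chd3 (-0.90 ± 0.13) and the second ISWI ATPase Smarca1 (-1.07 ± 0.16). Smarca5 was at 161, 153 and 168 CPM in iRGC libraries against 94.1, 103 and 112 CPM, and Smarca1 at 27.9, 42.1 and 38.2 against 78.0, 70.5 and 79.1 CPM. In the NuRD family, whose CHD ATPases are also exchanged between progenitors and neurons, the broadly used Chd4 was at 1028, 1067 and 1011 CPM in iRGC libraries against 1151, 1035 and 1189 CPM and was not called (-0.12 ± 0.10). Chd5, the neuronal one, was at 22.4, 20.6 and 52.1 CPM against 198, 173 and 74.2 CPM. With library totals the same 4 and also Atrx, Chd2 and Chd9 were called higher, and the same 3 lower. The same 4 and 3 were called without iRGC library 1.

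REST is a repressor that keeps neuronal genes silent in progenitors with its partners of the CoREST and SIN3 complexes, and it is known to repress the miR-9 and miR-124 genes. Rest was at 86.9, 71.2 and 60.3 CPM in iRGC libraries 1 to 3 and at 23.7, 20.8 and 23.5 CPM in cRGC libraries, a log2 fold change of 1.68 ± 0.16 (SE; edgeR, Benjamini-Hochberg adjusted p = 0.000212). Its groups lay far apart. Of its 7 listed partners, Rcor1 (0.94 ± 0.13), Hdac1 (0.92 ± 0.15) and Sin3a (0.67 ± 0.12) were also higher, Rcor3 (-0.77 ± 0.13) and Kdm1a (-0.33 ± 0.10) were lower, and Rcor2 (0.20 ± 0.11) and Hdac2 (-0.25 ± 0.11) missed the threshold. Hdac2 lay at the threshold (edgeR adjusted p = 0.104) and was called lower under 6 of 14 alternatives, among them DESeq2 and limma voom. With library totals Rcor2 was called higher and Kdm1a lost its call, as Kdm1a also did without iRGC library 2. The list thus had 4 of 8 higher (50%, beside 23.3% of all tested genes) and 2 of 8 lower (25%, near the 23.1% of all), and the same genes were called without iRGC library 1.

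Mature miRNAs are not measured by polyA RNA-seq, and the following values are of the long host transcripts. Mir124-2hg was at 181, 276 and 201 CPM in iRGC libraries and at 327, 285 and 338 CPM in cRGC libraries (log2 fold change -0.53 ± 0.16). Mir124a-1hg was at 139, 187 and 115 against 207, 170 and 280 CPM, overlapped, and was called by a small margin (-0.57 ± 0.22, edgeR adjusted p = 0.0657). The miR-9 hosts went the other way. C130071C03Rik, which contains Mir9-2, was at 206, 162 and 168 CPM in iRGC libraries against 134, 104 and 68.9 CPM (0.80 ± 0.22), and the scarce Mir9-3hg at 2.48, 3.99 and 6.21 against 0.615, 1.69 and 0.710 CPM (2.07 ± 0.65). Both miR-124 hosts lost their call with library totals, and Mir124a-1hg lost it under 6 of 14 alternatives, leaving out iRGC library 1 among them. The call of Mir9-3hg was lost without iRGC library 3 (1.67, edgeR adjusted p = 0.146) and without cRGC library 3 (1.85), and its log2 fold change reached 2.67 without cRGC library 2. C130071C03Rik kept its call under all 14.

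Markers of cell types other than RGCs and progenitors were also unequal. Of 8 neurogenic precursor markers 7 were higher in iRGCs, among them Atoh7, Neurog2 and Dll1, and Sox11 was lower; the list summed to 1743, 2011 and 1501 CPM in iRGC libraries against 1282, 1268 and 1473 CPM. All 4 tested photoreceptor precursor markers (sums 555, 441 and 450 against 71.1, 148 and 104 CPM, led by Otx2) and all 5 amacrine and horizontal markers (300, 228 and 356 against 102, 145 and 71.7 CPM, led by Tfap2b) were higher in iRGCs. All 4 tested of 7 endothelial markers were higher, with sums of 442, 586 and 431 against 85.2, 107 and 70.0 CPM, mostly Kdr, and limma voom called 2 of the 4; Cdh5 was at 0 in all cRGC libraries and at 15.2, 81.3 and 0.158 CPM in iRGC libraries. Mural cell markers (3 of 4 tested higher) summed to 131, 248 and 105 against 20.8, 30.9 and 22.4 CPM, led by Notch3, with Kcnj8 at 0 in all cRGC libraries. Microglia markers (3 of 5 tested higher) summed to 12.9, 20.6 and 13.8 against 0.577, 3.83 and 1.16 CPM, led by Csf1r. Their count was 1 without iRGC library 2 or without iRGC library 3, 2 without cRGC library 1 or cRGC library 3, and 5 without iRGC library 1. Erythroid markers (4 of 4 tested higher) summed to 12.2, 92.7 and 15.2 against 0, 5.11 and 0.290 CPM, led by Hbb-bs, with Hbb-y at 0 in all iRGC libraries and Alas2 in all cRGC libraries. The erythroid count rested on iRGC library 2, since it was 1 of 4 without that library, and it was 2 of 4 by the DESeq2 test and 1 of 4 by limma voom. Of 7 dissociation response genes 4 were higher, summing to 1102, 2206 and 835 against 475, 551 and 534 CPM, led by Fos. No pigment epithelium or lens marker was called in the main edgeR fit. The DESeq2 test, limma voom and edgeR with library totals each called the pigment gene Dct higher. By edgeR the lens gene Cryaa was called higher without a filter and Crygc without iRGC library 1. No astrocyte marker passed the filter. iRGC library 2 was the highest for blood vessel, blood and dissociation genes. Without it the same number of members was called, 3 higher and 5 lower, and the part of these cells in the BAF differences was not tested.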

How the data were processed

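RNA-seq of GFP-positive sorted retinal cells (polyA RNA) was analysed from 6 deposited tables of raw counts per gene, 3 iRGC and 3 cRGC libraries; 13 further samples of the series were not analysed here. According to the study's methods, the authors aligned reads to mm10 with HISAT2 2.1.0 and counted them with HTSeq 0.11.1; the strand setting was not stated. The 5 rows that name no gene were left out (reads in no feature were 8.09 to 16.8% of all reads tallied). The lowest share was in iRGC library 3, against 14.6 and 13.9% in iRGC libraries 1 and 2. The cRGC libraries had 16.8, 12.9 and 13.0%. Reads without a unique alignment were 29.6, 30.5 and 33.0% in iRGC libraries and 25.9, 28.2 and 28.2% in cRGC libraries. The part of either share in the BAF differences was not tested. Symbols and exonic lengths came from GENCODE M21 (46574 of 47069 genes matched) and promoter and miRNA sequences from RefSeq.

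Genes were filtered with filterByExpr, scaled by TMM and tested with edgeR 4.0.16 (quasi-likelihood) under R 4.3.3, with Benjamini-Hochberg adjustment over 15941 genes and a threshold of 0.1, the rate the study used. SE is the absolute log2 fold change over the square root of F. Ratios were tested by exact permutation (scipy 1.17.1). Alternatives were DESeq2 1.42.0, limma 3.58.1 voom, other size factors and filters, a replicate block, a threshold of 0.05, an absolute log2 fold change above 1, and leaving out each library. The fits were first run on simulated counts. Few genes were changed there, each by more than Actl6a, Phf10 or Ss18 differed here, so that run does not check those calls. The text names all 10 members, the genes of fixed lists, and the 3 genes most correlated with Actl6a and with Actl6b. Members and lists were chosen with earlier results of these data known. Alternatives for the lists beyond BAF were added after seeing the data. Depth (28193178 to 33638083 counts) was similar in all libraries; intervals from 3 libraries a group are wide, with a biological coefficient of variation of 36.3% overall.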

Additional observations from a re-analysis of the deposited data

How the results depend on the processing

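Each of the 10 members was read under 16 alternatives, and of these 160 values 154 kept their direction and side of the threshold. Of the alternatives 14 were other fits. The threshold of 0.05 and the absolute log2 fold change above 1 were applied to the main fit, so they could not change a direction. Library totals in place of TMM turned Smarca2 to 0.083 (edgeR adjusted p = 0.618) and Dpf2 to 0.046 (adjusted p = 0.751), neither of them called before or after; that scaling shifted the median of all genes by 0.20 and the calls from 3707 higher and 3688 lower (50.1% higher) to 5100 and 2842 (64.2% higher). Requiring an absolute log2 fold change above 1 left out Smarca4 (-0.49), Actl6a (0.82), Phf10 (0.41) and Ss18 (0.39), so 0 members were higher, 2 shared BAF subunits lower, and 1930 and 1758 tested genes higher and lower. The count of shared BAF subunits higher, 0 with TMM, was 3 with library totals and from 0 to 1 on leaving out one library (Bcl7a without iRGC library 3). The member counts of 3 higher and 5 lower held on leaving out each library. For all 4 ratios the difference between populations kept its direction under every alternative run, which was largely fixed in advance. Groups that do not overlap cannot change order when a library is left out. The exon length cancels between populations for ratios of single genes, and the blocked difference equals the main one by construction.

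Replicate numbers did not pair the libraries: same-numbered iRGC and cRGC libraries deviated with correlations of -0.01, -0.04 and -0.07. In the fit with a replicate block the members called stayed at 3 and 5, and all tested genes called went to 3316 higher and 3435 lower, and Ino80b, Ino80e, Bicra and Mir124a-1hg lost their calls (edgeR adjusted p = 0.122, 0.109, 0.115 and 0.134); the blocked ratio differences are the main ones, at -2.75, -1.63, 0.37 and -1.75 on the log2 scale. That Dpf2 and Smarca2 missed the threshold with 3 libraries a group does not show that they did not differ.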
